A study of Mus musculus with 2 samples.

Results

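The cells described here are macrophages from mouse glioblastoma that carried complement C1q transcripts together with Mrc1 or Ms4a7 and no transcript of Arg1, and they numbered 415 of the 54574 barcodes that passed quality control. A barcode was kept when it had at least 200 detected genes, at most 10% mitochondrial counts and a ratio of at least 0.8 between the log10 of its genes and the log10 of its counts. A gated macrophage then had at least 5 UMIs (unique molecular identifiers, the count of captured molecules) of C1qa, C1qb and C1qc together, at least 1 UMI of Mrc1 or Ms4a7, no UMI of P2ry12, Tmem119, Siglech, Arg1 or Ccr2, and at most 3 UMIs of Olig1, Olig2 and Ptprz1 together. These macrophages were thus chosen by their measured UMI counts, so the levels of these 13 genes describe the choice of cells and are not findings.

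C1qa, C1qb and C1qc encode the chains of C1q, the recognition unit of the classical complement cascade, which tags cells and debris for uptake by phagocytes. Macrophages of the brain fall into microglia, which live in the parenchyma and carry P2ry12 and Tmem119, and border macrophages of vessels and meninges, which carry the mannose receptor Mrc1 and the membrane protein Ms4a7. Arg1, an arginine-degrading enzyme, and Ccr2, a chemokine receptor of monocytes, mark macrophages and precursors that arrive from blood. Lyve1, the haptoglobin-hemoglobin receptor Cd163 and the transglutaminase subunit F13a1 are further known genes of border macrophages.

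The tumors grew from mouse glioblastoma stem cells (mGSC, Trp53+/- and Nf1+/-) placed in the right striatum of C57BL/6J mice, which keep their own immune cells. All mice were females of 6 to 8 weeks and carried the same tumor line. They received vehicle or Xevinapant, an oral inhibitor of the IAP proteins that restrain cell death, at 50 mg/kg daily for 7 days. The labels name 1 library pool per group, read by a probe-based assay on fixed cells in which a probe barcode keeps samples apart, and the 4 matrices of each pool, 8 in all, held 56943 barcodes. The study's methods speak of individual mice and its results of 4 tumors per group, a number that equals the matrices of each group. However, no label ties a matrix to a mouse. Vehicle and Xevinapant pools were run under different batch dates, and the effects of date and drug cannot be told apart.

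Some matrices within a group were much alike in their tumor cells. No label tells whether such a pair came from a single tumor. At equal depth, 3 pairs differed by 1.24 to 3.04 times the sampling variance between cells, against 13.1 to 41.2 for the other pairs. These pairs were joined, which left 3 vehicle samples (59, 38 and 58 gated macrophages) and 2 Xevinapant samples (132 and 128). The limit for joining was chosen after the data were seen, and results with all 8 matrices kept apart are given where they differ. Between the groups, 1413 full barcodes were shared, with the smaller copy holding a median of 0.597% of the UMIs of the larger, and 10 gated macrophages lay on such barcodes.

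The start regions of 3 genes of the gate are shown because the gate rests on them, and because C1qb and C1qc lie close together on 1 chromosome. Each line gives the 250 bases before the RefSeq start on GRCm38.p6, 5′ to 3′ on the strand of the gene. Capitals mark GAGGAA or its reverse complement TTCCTC, the core of the site known for PU.1, the factor that directs macrophage development.
C1qb (chr4:136886201-136886450, minus strand): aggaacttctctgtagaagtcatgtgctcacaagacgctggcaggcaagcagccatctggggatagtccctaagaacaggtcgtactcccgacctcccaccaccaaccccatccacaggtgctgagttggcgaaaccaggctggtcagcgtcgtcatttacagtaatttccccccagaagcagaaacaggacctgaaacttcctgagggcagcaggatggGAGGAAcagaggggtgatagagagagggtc
C1qc (chr4:136892915-136893164, minus strand): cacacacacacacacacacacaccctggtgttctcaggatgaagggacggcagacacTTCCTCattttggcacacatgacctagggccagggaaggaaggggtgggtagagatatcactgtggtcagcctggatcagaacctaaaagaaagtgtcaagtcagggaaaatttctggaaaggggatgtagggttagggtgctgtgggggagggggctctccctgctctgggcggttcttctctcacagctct
Mrc1 (chr2:14229164-14229413, plus strand): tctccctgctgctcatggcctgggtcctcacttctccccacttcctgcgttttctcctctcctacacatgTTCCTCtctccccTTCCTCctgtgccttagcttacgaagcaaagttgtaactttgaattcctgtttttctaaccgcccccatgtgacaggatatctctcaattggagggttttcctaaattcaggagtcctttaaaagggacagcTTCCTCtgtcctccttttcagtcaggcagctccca
The motif was present in 23.3% of 32851 promoter windows of this length, so its presence in these 3 windows is a description and no evidence of binding. Neither of the 2 windows listed for Ms4a7 held it, and C1qa had no entry.

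The gated macrophages were shallow cells. Their median depth was 1869 UMIs (500 to 28113), against 7225 in microglia, 5414 in Arg1 macrophages and 17439 in tumor barcodes. Microglia here are 411 barcodes with the same C1q and tumor limits, no Arg1 or Ccr2 and at least 2 of P2ry12, Tmem119 and Siglech detected. Arg1 macrophages are 94 barcodes that passed the gate in all but Arg1, of which they had at least 2 UMIs. Median depth of gated macrophages by joined sample ran from 1402 to 1852 UMIs in vehicle and was 1990 and 2151 after Xevinapant, so the treated cells were slightly deeper.

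General macrophage genes were present. The lysosomal protein Cd68 had a UMI in 329 gated macrophages, the cathepsin Ctsz in 374 and the CSF1 receptor Csf1r in 278. Most marker genes of other immune cells were near 0, with exceptions. The receptor Csf3r, listed for neutrophils, had a UMI in 130 barcodes (31.3%) at a pooled level of 180.4 CPM (counts scaled to a common library total) against 165.1 CPM in microglia, and Cd79b, listed for B cells, in 20 (4.82%). The immunoglobulin gene Ighm of B cells had a UMI in 53 barcodes (12.8%), and 1 barcode held 22.1% of its UMIs. Nkg7 of NK and T cells and Cd79a of B cells had no UMI, and Cd3e, S100a8, Cxcr2 and Flt3 had a UMI in 1 barcode each. Wider gene lists of these cells held expressed genes. By joined sample, Cd4 of the T, NK and B cell list stood at 33.1 to 179.2 CPM. Fscn1 of the dendritic cell list stood at 54.9 to 273.4 CPM. The dendritic cell list summed to 762.6 to 1453 CPM, against 1173 to 1400 CPM in microglia. Of the monocyte markers outside the gate, Vcan had a UMI in 43 barcodes, Plac8 in 39 and Chil3 in 4. In the wider monocyte list S100a4 had a UMI in 44 barcodes. By joined sample, Itgal of that list stood at 105.4 to 198.9 CPM and Smpdl3a at 91.1 to 210.8 CPM. Some barcodes held RNA of other cells. Fibroblast genes (Col1a1, Col1a2, Col3a1, Dcn and Lum) reached 10 UMIs in 7 barcodes, and 35 gated macrophages had high doublet scores.

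The edges of the gate were thinly filled on the C1q side and crowded on the side of the excluded genes. There were 13 gated macrophages with exactly 5 C1q UMIs, and 19 barcodes missed the gate with 4. A single microglia UMI kept out 229 barcodes, a single Arg1 UMI 35 and a single Ccr2 UMI 19, and 193 barcodes had neither Mrc1 nor Ms4a7. Tumor genes kept out 333 barcodes, 12 of them with 4 UMIs, while 247 gated macrophages had none. Depth entered the gate directly. When all barcodes of at least 2000 UMIs were thinned to 2000, 167 of 194 gated macrophages still passed, and so did 44 of 379 microglia (11.6%) and 5 of 77 Arg1 macrophages (6.49%), and the number of passing barcodes rose to 506. At low depth the gate thus also admits barcodes that count as microglia at full depth, and most of those gained were in none of the populations named here.

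The gate held cells of unlike makeup. Mrc1 was detected in 205 gated macrophages, of which 145 also had Ms4a7, and 210 passed on Ms4a7 alone. Ms4a7 did not set these cells apart from microglia by level, with pooled values of 1075 CPM in gated macrophages and 1281 CPM in microglia. In 98 barcodes the pass rested on a single UMI of either gene. Several border macrophage genes were detected far more often in the barcodes that had Mrc1, while others of that list were shared. The split was chosen after values were seen and is given as a description, with no test. The platelet factor gene Pf4 was detected in 47.5% with Mrc1 and 24.2% with Ms4a7 alone at 1000 UMIs per barcode, and Apoe in 96.8% and 97.5%. The subsets were of similar depth (median 2060 UMIs with Mrc1, 1748 with Ms4a7 alone).

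At 1000 UMIs per barcode, F13a1 was detected in 42.4% of 158 barcodes with Mrc1 and in 1.91% of 157 with Ms4a7 alone (46.8% and 4.76% without thinning). The carbonyl reductase gene Cbr2 was detected in 25.9% against 0 of 157 (32.7% and 1.9% without thinning). A count of 0 of 157 allows up to 1.91% of barcodes with a UMI at this depth and says nothing of expression below it. The lectin gene Clec10a was detected in 19.6% against 1.27%, the folate receptor gene Folr2 in 36.1% against 5.73%, and the chemokine gene Ccl8 in 36.1% against 1.91%. Cd163 (7.59%) and Lyve1 (8.86%) were detected in the barcodes with Mrc1 and in 0 of 157 with Ms4a7 alone at this depth, against 0.952% and 0.476% of the barcodes with Ms4a7 alone without thinning. Tumor barcodes, which should lack these genes, were at 0.0% for Cd163, 0.025% for Lyve1 and 0.137% for F13a1. Thinning left out 100 shallower gated macrophages.

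Other genes ran the opposite way. The macrophage elastase Mmp12 was detected in 31.8% of the barcodes with Ms4a7 alone and in 6.33% of those with Mrc1. The MHC class II invariant chain Cd74 was detected in 47.8% against 24.7%, and H2-Aa in 29.3% against 13.3%. Hmox1, which degrades heme, was at 55.4% and 56.3% and did not separate the subsets, nor did the proliferation gene Mki67 at 17.8% and 17.7%. The share with Mki67 in tumor barcodes was 33.3%, so the share in macrophages lay below that of tumor barcodes and is not read as division. The complement gene C4b was detected in 40.5% of barcodes with Mrc1, and the 5.1% with Ms4a7 alone lay below the 11% of tumor barcodes.

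**Figure D1:**
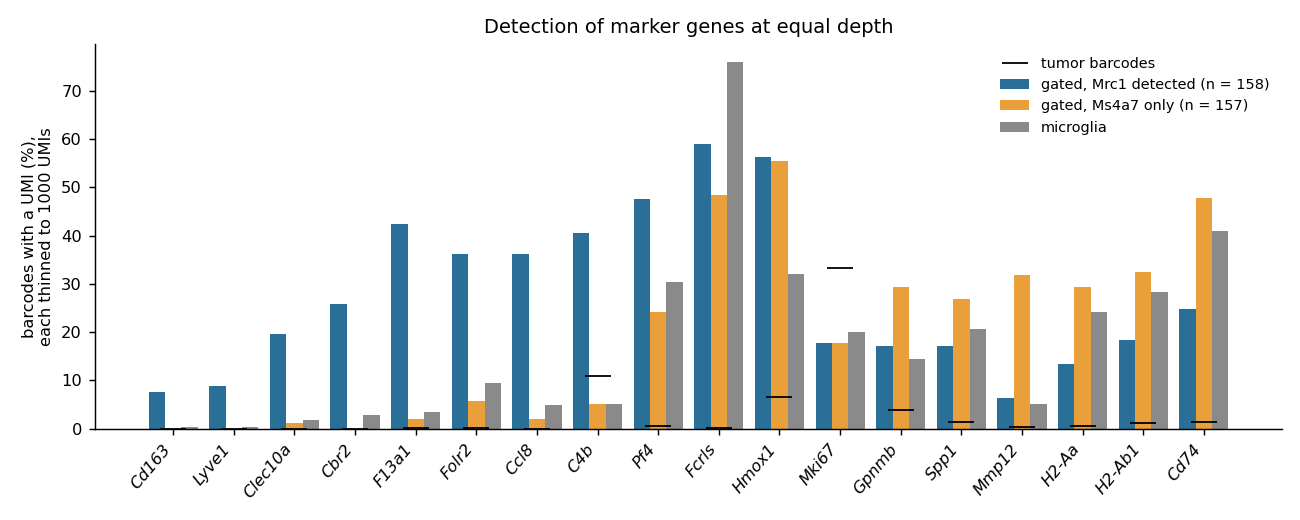
The vertical axis gives the percentage of barcodes with at least 1 UMI after thinning to 1000 UMIs, for 18 genes in gated macrophages with Mrc1 (blue), gated macrophages with Ms4a7 alone (orange) and microglia (grey), with black dashes for tumor barcodes. Border macrophage genes on the left are high in the blue bars (F13a1 42.4% against 1.91%), and Mmp12 and MHC class II genes on the right are higher in the orange bars.

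In summed counts, some of these genes separated the subsets in every joined sample and others did not. F13a1 stood at 412.9, 273.8 and 1116 CPM in the vehicle barcodes with Mrc1 and at 1475 and 1100 after Xevinapant. In barcodes with Ms4a7 alone it stood at 118.3, 183.0 and 17.0 in vehicle and 27.4 and 31.2 after Xevinapant, below the other subset in every joined sample. Cd209f, a lectin gene of the same list, stood at 59.0, 19.6 and 776.6 CPM in vehicle and 385.2 and 370.3 after Xevinapant with Mrc1, and had no count among the 594182 UMIs of the barcodes with Ms4a7 alone, where 3 counts would be 5.05 CPM. Ms4a7 alone made up 50.8%, 50% and 58.6% of the vehicle cells and 43.2% and 54.7% of the treated cells, so the groups overlapped. Pf4 stood at 884.7 CPM with Mrc1 and 1076 CPM with Ms4a7 alone in vehicle 1, and Mmp12 at 1789 and 1372 CPM, both against the direction of their shares of barcodes.

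The first comparison between the groups asked whether Xevinapant changed how common these macrophages were. Shares of a joined sample are means over its matrices. The gated macrophages made up 0.65%, 0.533% and 0.405% of all barcodes in the vehicle samples and 1.49% and 0.842% in the Xevinapant samples. Both treated samples lay above all vehicle samples. The means were 0.529% ± 0.122 (SD, n = 3) and 1.17% ± 0.457 (SD, n = 2), a difference of 0.636 percentage points. The exact two-sided permutation test gave p = 0.1, which is the smallest value that 3 against 2 samples allow. With the 8 matrices as 8 samples, the difference was 0.606 points and the exact permutation p was 0.0286, again the smallest possible. That setting counts the alike matrices as separate samples. Wilson 95% intervals, which cover counting error only, ran from 0.504% to 0.837% in vehicle 1 and from 0.71% to 1.0% in Xevinapant 2, and so overlapped. The difference was 0.313 points without Xevinapant 1, 0.959 without Xevinapant 2 and 1.05 when barcodes were thinned to 2000 UMIs before the gate.

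Relative to other C1q barcodes, the share was alike in both groups. Of 2467 barcodes past the C1q and tumor limits, the gated macrophages were 15.9%, 20% and 15.1% in vehicle and 17.0% and 17.2% after Xevinapant. The means were 17.0% ± 2.63 (SD, n = 3) and 17.1% ± 0.126 (SD, n = 2), and the exact permutation p was 1.0. C1q barcodes as a whole were 370 of 9079, 190 of 7135 and 385 of 14310 barcodes in vehicle and 777 of 8868 and 745 of 15182 after Xevinapant.

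Among the 674 barcodes with Mrc1 or Ms4a7 and no microglia gene, Arg1 and Ccr2 were at 0 less often in the treated samples. As means over the matrices of a joined sample, the gated macrophages were 69.5%, 82.6% and 74.4% of them in vehicle and 49.6% and 65.2% after Xevinapant (59 of 86 barcodes in vehicle 1 and 132 of 268 in Xevinapant 1). The joined samples did not overlap between the groups, with means of 75.5% ± 6.64 (SD, n = 3) and 57.4% ± 11 (SD, n = 2). Over the joined samples, the difference of -18.1 points had an exact permutation p of 0.1, again the smallest possible. It was -15.9 points when barcodes were thinned to 2000 UMIs before the gate and -10.3 points without Xevinapant 1. The groups overlapped among barcodes of at least 2000 UMIs (-15.4 points, exact permutation p = 0.3) and with the tumor limit at 0 UMIs (-19.5 points, exact permutation p = 0.2). Arg1 macrophages numbered 15, 7 and 0 in vehicle and 55 and 17 after Xevinapant.

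**Figure D2:**
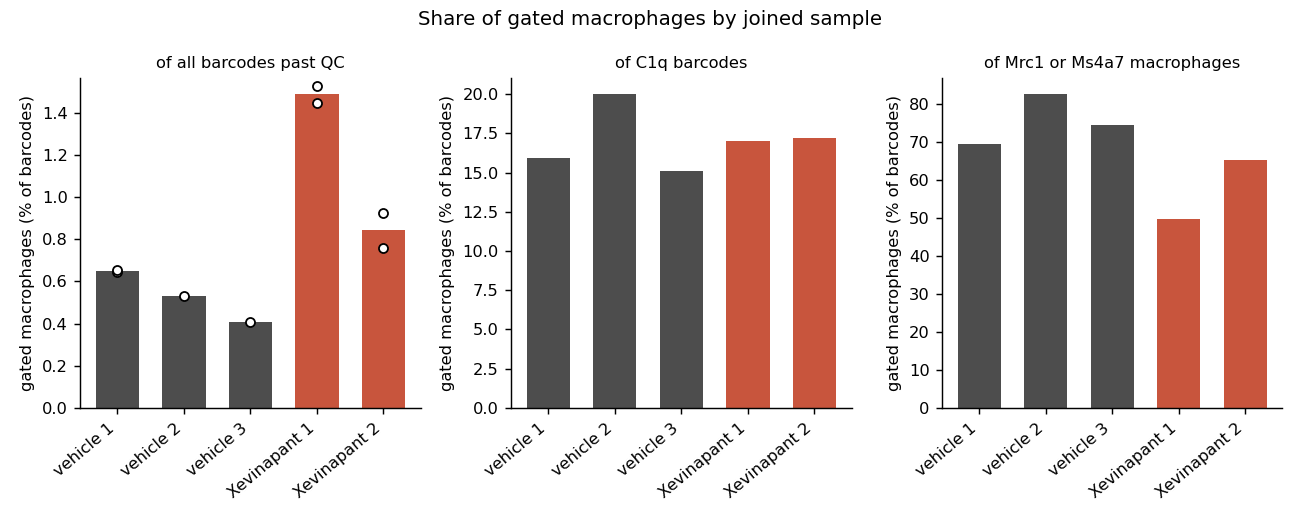
Bars give the percentage of barcodes that were gated macrophages in each of 5 joined samples (grey vehicle, red Xevinapant), out of all barcodes, out of C1q barcodes and out of barcodes with Mrc1 or Ms4a7, and open circles in the first panel give the single matrices. Treated samples are higher in the first panel (1.49% and 0.842%), level in the second and lower in the last (49.6% and 65.2%).

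The gated macrophages were then set against microglia of the same samples. In the border macrophage list 9 of 21 tested genes were higher in the gated macrophages and 3 lower, in the complement list 5 of 12 were higher and 1 lower, and in the homeostatic microglia list 2 of 13 were higher and 7 lower. F13a1 and C4b were among the genes with the largest differences, and the purine receptor P2ry13 was lower. The populations were split by the gate, so genes that go with its genes will differ, and the genes of the gate were left out of the test. With edgeR's quasi-likelihood test on summed counts and the joined sample as a block, 532 of 7353 genes (7.24%) were higher and 435 (5.92%) lower in gated macrophages at an adjusted p under 0.05.

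F13a1 stood at 228.9, 231.9 and 580.0 CPM in gated macrophages of the vehicle samples and at 894.4 and 519.9 after Xevinapant. In microglia it stood at 15.5, 12.5 and 25.4 in vehicle and 109.1 and 27.6 after Xevinapant. The ranges did not meet, and edgeR gave a log2 fold change of 3.73 ± 0.20 (SE) with an adjusted p of 2.61e-11. Clec10a stood at 88.6, 21.1 and 240.3 CPM against 1.94, 0.0 and 0.0 in vehicle, and at 252.7 and 181.3 against 25.5 and 8.62 after Xevinapant (log2 fold change 4.19 ± 0.33, edgeR adjusted p = 1.7e-08). The gene was thus near 0 in microglia of the vehicle samples. Among the 10 largest differences in each direction were also Fcna, which encodes the lectin ficolin A (3.04 ± 0.36), and the scaffold gene Ahnak (2.88 ± 0.28). On the lower side were the sulfotransferase gene Gal3st4 (-2.98 ± 0.39), the Toll-like receptor gene Tlr12 (-2.32 ± 0.27) and the cyclooxygenase gene Ptgs1 (-2.31 ± 0.19), each lower in all 5 joined samples.

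Of the 30 genes listed for perivascular and border macrophages, 21 passed the filter on low counts and were tested, and 9 were higher and 3 lower in gated macrophages. The endothelin receptor Ednrb (log2 fold change 2.99 ± 0.27), Cbr2 (2.13 ± 0.29) and Folr2 (1.47 ± 0.19) rose in all 5 joined samples. Apoe, which carries lipids, was lower at -0.46 ± 0.15. Cd163 and Lyve1 had too few counts over the samples of both populations to pass the filter. Cd163 stood at 14.8, 31.6 and 215.4 CPM in gated macrophages of vehicle and 162.6 and 191.0 after Xevinapant, and at 0.0 to 1.94 CPM in microglia. Over all genes tested, the median log2 fold change was 0.0141, and for this list it was 0.355.

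The median log2 fold change of the complement list was 0.0937, near that of all genes. C4b, a component that C1q activation cleaves, stood at 731.0, 284.6 and 994.3 CPM in vehicle and 529.6 and 606.9 after Xevinapant, against 18.6 to 132.1 CPM in microglia (log2 fold change 3.07 ± 0.28, edgeR adjusted p = 1.13e-07). The central component C3 was also higher (1.11 ± 0.25). Tumor barcodes expressed C4b as well, as given above.

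The median log2 fold change was -0.859 over the homeostatic microglia list, and 7 of 13 tested genes were lower and 2 higher. P2ry13 stood at 66.5, 52.7 and 74.6 CPM in vehicle and 37.4 and 48.4 after Xevinapant in gated macrophages, against 143.3 to 250.7 in microglia, and the ranges did not meet (log2 fold change -2.0 ± 0.21, edgeR adjusted p = 8.78e-07). The receptor Gpr84 (-2.14 ± 0.33) and Csf1r (-0.86 ± 0.13) were lower in all 5 joined samples. The TGF-beta receptor Tgfbr1, which microglia need for their identity, was lower at -1.40 ± 0.16. Sparc, a matrix protein, was 1 of the 2 higher genes.

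The wound-type, hypoxia, stress and iron lists held more called genes on the higher side. In the wound-type list 10 of 18 genes were higher and 3 lower. They included Mmp12 (log2 fold change 2.63 ± 0.27), the angiogenic factor Vegfa (1.91 ± 0.21) and Hmox1 (1.32 ± 0.20). Of 32 hypoxia and glycolysis genes tested, 14 were higher and 0 lower, led by Ndrg1 at 2.85 ± 0.33. Of 24 immediate early and dissociation stress genes, 11 were higher and 0 lower, among them Nr4a1 (1.88 ± 0.28) and Fos (1.43 ± 0.25). Iron genes followed, with 5 of 17 higher and 0 lower. The ferritin chain Fth1 was higher by 0.67 ± 0.14 on the log2 scale.

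Lysosomal, cell cycle and checkpoint lists held more called genes on the lower side. Of 34 lysosomal genes 12 were lower and 3 higher, and of 34 cell cycle genes 9 were lower and 0 higher, with Mki67 at -0.87 ± 0.17. In the checkpoint list 6 of 19 genes were lower and 2 higher. The lower genes included Havcr2, which encodes TIM-3 (-0.78 ± 0.18), and Cd274, which encodes PD-L1, was higher at 1.43 ± 0.21. MHC class II genes gave 3 lower of 10, and the surface chains did not pass the test. Cd74 had a log2 fold change of 0.33 ± 0.14 with an edgeR adjusted p of 0.127. No gene of oxidative phosphorylation passed the test out of 33, with a list median of -0.188.

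RNA of tumor cells moved with this comparison. All 12 tested genes of the tumor list outside the gate's limit were higher in gated macrophages, with a median log2 fold change of 1.30. The summed level of the tumor list was 734.0 to 2262 CPM in gated macrophages, 315.7 to 670.7 in microglia and 6951 to 9418 in tumor barcodes. All 4 fibroblast and mural genes tested were higher too. A single barcode held 85.7% of the Col3a1 UMIs and 75.9% of those of Col1a1. With barcodes of at least 2000 UMIs in both populations, 342 genes were higher and 274 lower, and the border macrophage list gave 8 of 20 higher and 0 lower and the tumor list 3 of 5 higher. The part of tumor RNA and depth in the other calls was not tested.

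**Figure D3:**
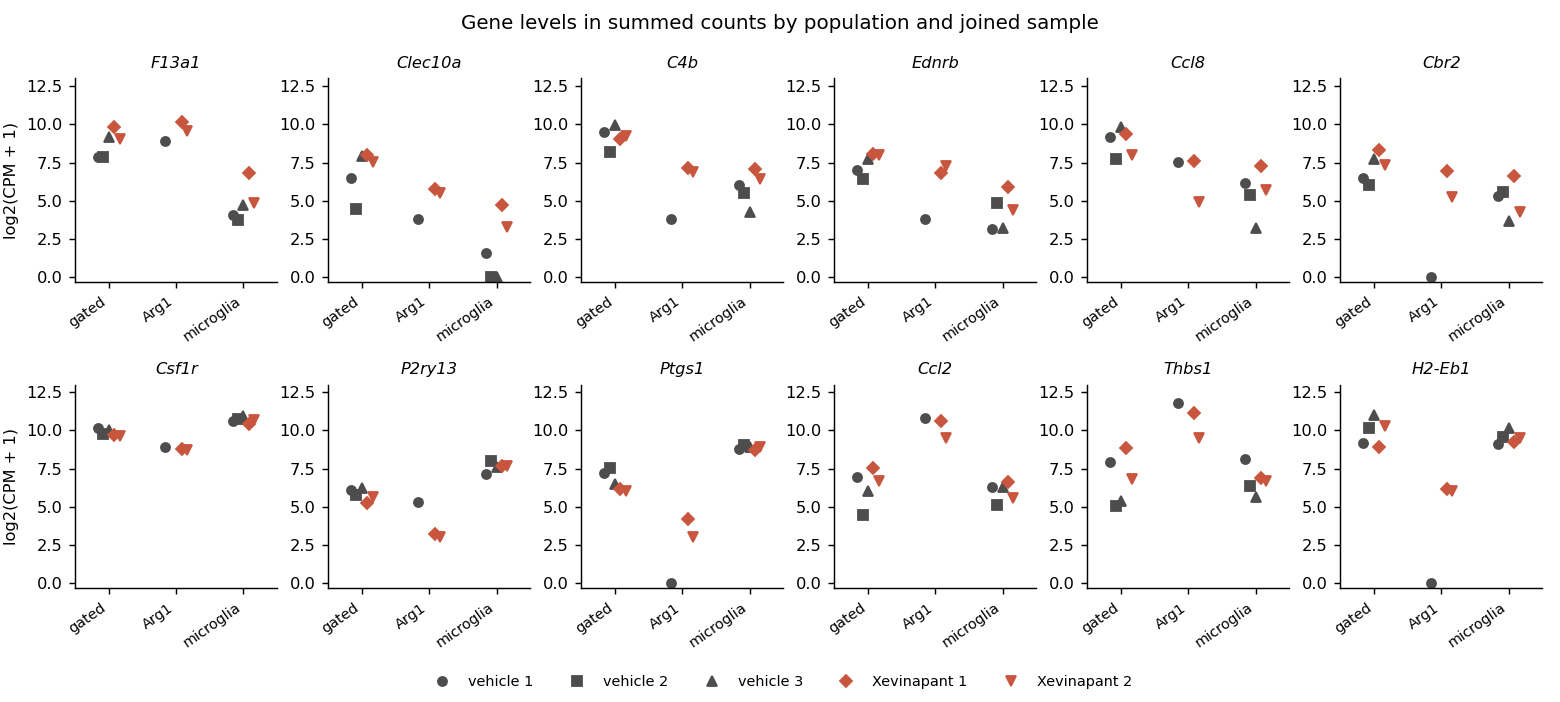
Each panel shows 1 gene as log2(CPM + 1) in gated macrophages, Arg1 macrophages and microglia, with 1 symbol for each joined sample that had enough cells (grey vehicle, red Xevinapant). F13a1 and C4b lie higher in gated macrophages than in microglia in every joined sample, P2ry13 and Csf1r lie lower, and Ccl2 and Thbs1 lie highest in Arg1 macrophages.

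Against Arg1 macrophages, 5 of 10 MHC class II genes were higher in the gated macrophages and 0 lower, and 7 of 17 wound-type genes were lower and 0 higher. The lipid-associated and chemokine lists held called genes in both directions. These populations were split by Arg1, so genes that go with Arg1 will differ. The gated macrophages were also shallower (median 1869 against 5414 UMIs), and the part of depth in these calls was not tested. The comparison rested on 3 joined samples with at least 10 cells of both kinds (vehicle 1, Xevinapant 1 and Xevinapant 2). With edgeR, 121 of 5984 genes (2.02%) were higher and 137 (2.29%) lower. Without Xevinapant 1 the counts were 28 and 40, without vehicle 1 they were 171 and 166, and without Xevinapant 2 they were 109 and 86.

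The MHC class II genes that passed were the surface chains, Cd74 and the costimulatory ligand gene Cd86. H2-Eb1 stood at 583.3, 490.1 and 1260 CPM in the gated macrophages of the 3 samples and at 0.0, 70.3 and 65.4 in Arg1 macrophages (log2 fold change 3.53 ± 0.39, edgeR adjusted p = 7.85e-05). H2-Aa (2.95 ± 0.43), Cd74 (2.91 ± 0.47) and H2-Ab1 (2.65 ± 0.35) were higher in all 3 samples. The list median was 1.19, against 0.00784 over all genes tested. No MHC class I gene passed the test out of 16.

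Chemokine genes split. Ccl2 and Ccl7, ligands of Ccr2, were lower by 3.31 and 2.70 on the log2 scale (-3.31 ± 0.26 and -2.70 ± 0.27). Ccl2 stood at 125.5, 186.8 and 101.6 CPM in gated macrophages and at 1797, 1594 and 726.5 in Arg1 macrophages. Cxcl3 had no UMI in gated macrophages and stood at 66.1, 147.1 and 130.8 CPM in Arg1 macrophages. In the other direction, Ccl5 stood at 192.0, 309.9 and 266.0 CPM against 13.2, 2.13 and 0.0, Cxcl10 at 841.8, 109.9 and 142.7 against 66.1, 2.13 and 7.26, and Ccl8 was higher at 1.84 ± 0.27. In all, 5 of 20 tested chemokine genes were higher and 10 lower. The cytokine gene Il1b stood at 214.1, 46.1 and 72.5 CPM with no UMI in the Arg1 macrophages of these samples. These genes were carried by few cells, since Ccl5 had a UMI in 29 gated macrophages and 1 barcode held 39.1% of its UMIs, while 1 barcode held 30.4% of those of Cxcl10.

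In the lipid-associated list 8 of 25 genes were lower and 2 higher (Itgax and Pltp). Spp1, which encodes osteopontin, had a log2 fold change of -2.41 ± 0.32, the fatty acid carrier Fabp4 -2.67 ± 0.38 and the scavenger receptor Cd36 -1.91 ± 0.25. The wound-type gene Thbs1 stood at 243.7, 465.9 and 111.2 CPM against 3555, 2260 and 733.7 (-3.0 ± 0.29, edgeR adjusted p = 3.11e-05). The coagulation factor genes F7 (-3.91 ± 0.55) and F10 (-3.13 ± 0.48) and the collagenase gene Mmp8 (-3.41 ± 0.38) were lower in all 3 samples. Hmox1, higher in gated macrophages than in microglia, was lower than in Arg1 macrophages at -1.73 ± 0.24. Of the monocyte list, 5 of 12 were lower, among them S100a4 (-2.10 ± 0.42) and Plac8 (-1.88 ± 0.46), and 2 were higher (Nr4a1 and Itgal). Against microglia, 4 of 11 genes of this list were higher and 1 was lower.

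Border macrophage genes gave 3 higher and 1 lower of 21 in this comparison. Clec10a (2.10 ± 0.31), Cbr2 (1.59 ± 0.33) and Ednrb (1.08 ± 0.29) were higher, and the platelet factor gene Pf4 was lower at -1.82 ± 0.31. F13a1 stood at 228.9, 894.4 and 519.9 CPM in gated macrophages and at 475.7, 1117 and 748.3 in Arg1 macrophages, with an edgeR adjusted p of 0.126. In the 83 barcodes with Ccr2 and no Arg1 it stood at a pooled 458.5 CPM, against 610.9 CPM in gated macrophages, so the gene is not particular to the latter. Of 10 homeostatic microglia genes tested against Arg1 macrophages, 3 were also higher (Sparc, Fcrls and Csf1r) and 0 lower. The median of that list was 0.694, against 0.309 for the border macrophage list. Cell cycle genes were higher in 7 of 21, with Top2a at 1.87 ± 0.29. The collagen genes Col3a1, Col1a2 and Col4a1 were also higher, and a single barcode held 85.7%, 74.4% and 65.5% of their UMIs. Tumor list genes were higher in 2 of 7. In the samples compared, that list summed to 775.3, 734.0 and 1018 CPM in gated macrophages and 343.6, 257.9 and 356.0 in Arg1 macrophages. The cell cycle list summed to 5930 to 8526 CPM in tumor barcodes. The part of tumor RNA in the cell cycle calls was not tested.

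**Figure D4:**
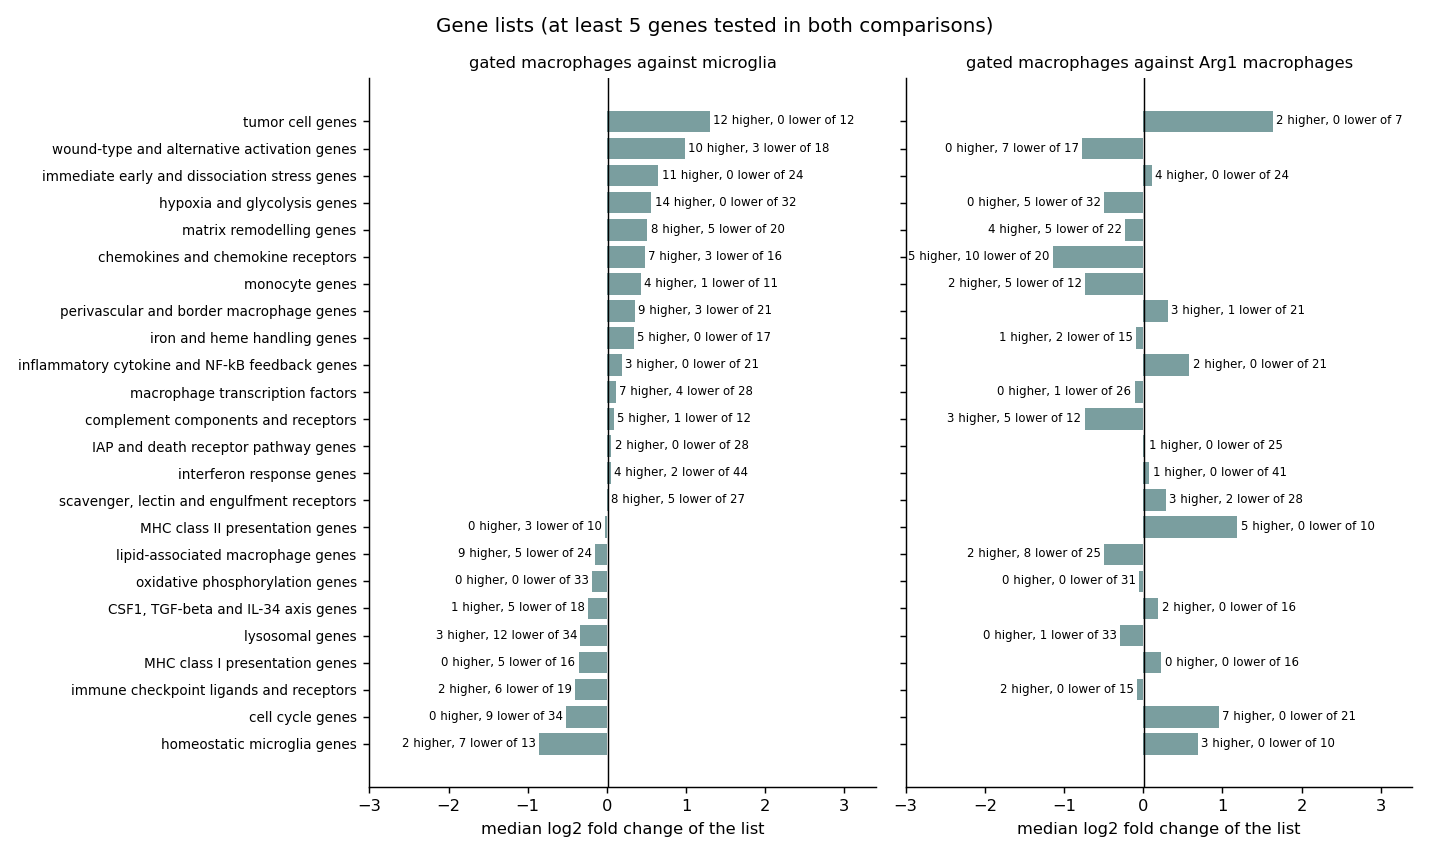
Bars give the median log2 fold change of 24 gene lists in gated macrophages against microglia (left) and Arg1 macrophages (right), the text beside each bar gives the genes past an edgeR adjusted p of 0.05, and the black line is the median over all genes tested (0.0141 and 0.00784). The wound-type and hypoxia lists lie above the line against microglia and below it against Arg1 macrophages, and the MHC class II list lies above it against Arg1 macrophages alone, with a median of 1.19.

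The last comparison asked what Xevinapant changed within the gated macrophages. No gene passed the test. With edgeR, 0 of 3895 genes (0%) had an adjusted p under 0.05, 176 (4.52%) had an unadjusted p under 0.05 (2.23% higher and 2.28% lower after Xevinapant), and DESeq2 also called 0, with 68 at an unadjusted p under 0.05. Genes whose treated samples both lay above all vehicle samples made up 9.55% of those tested, and 8.7% lay below. The genes named here have the smallest p among those without overlap, and none is called changed.

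Saa3, an acute-phase protein gene, stood at 0.0, 10.5 and 140.9 CPM in vehicle and at 1435 and 444.9 after Xevinapant. Both treated samples were above the vehicle range, with a log2 fold change of 4.2 ± 0.78 and an edgeR adjusted p of 0.263. It had a UMI in 40 of 415 barcodes, and 1 barcode held 20.8% of them. It passed the test when vehicle 3, Xevinapant 1 or Xevinapant 2 was left out, with log2 fold changes of 7.60, 3.10 and 4.84, with the tumor limit at 0 UMIs (5.79) and with cells thinned to equal totals per sample (4.19). With Xevinapant 1 or 2 left out, the lone treated sample is assumed to vary like the vehicle samples. The linker histone gene Hist1h1a had 120 UMIs in 33 of 415 barcodes, with 14.2% of them in 1 barcode. It stood at 7.38, 31.6 and 24.9 CPM in vehicle and 162.6 and 94.3 after Xevinapant (edgeR adjusted p = 0.263). The guanine deaminase gene Gda stood at 22.2, 31.6 and 24.9 CPM in vehicle and 105.5 and 123.3 after Xevinapant, with the same adjusted p.

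Matrix genes had large differences that rested on few barcodes. Col3a1 stood at 125.5, 126.5 and 41.4 CPM in vehicle and 3169 and 205.5 after Xevinapant. Without the 7 fibroblast-mixed barcodes it stood at 29.9, 0.0 and 41.4 in vehicle and 47.7 and 41.7 after Xevinapant, with both treated samples still above the highest vehicle sample. Those barcodes were defined partly by Col3a1 itself, so its fall follows from leaving them out. Without Xevinapant 2, 38 genes were called higher and 6 lower, and the higher genes included Col1a1, Col1a2, Col3a1, Col4a1, Col5a1, Col6a3 and Postn. The calcium-binding genes S100a4 and S100a10 kept their order without those barcodes. S100a4 then stood at 37.4, 31.9 and 58.0 CPM in vehicle and 400.6 and 115.2 after Xevinapant. Over all gated macrophages S100a4 also rested on few barcodes, with a UMI in 44 and 37.4% of its UMIs in a single barcode. S100a10 had a UMI in 95 barcodes, and a single barcode held 8.98% of its UMIs.

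Genes on the lower side had smaller differences. The sheddase gene Adam10 stood at 221.5, 168.7 and 223.7 CPM in vehicle and 81.3 and 108.8 after Xevinapant (log2 fold change -1.13 ± 0.30, edgeR adjusted p = 0.579). Nes, which encodes the intermediate filament nestin of neural stem cells, stood at 125.5, 105.4 and 223.7 CPM in vehicle and 61.5 and 70.1 after Xevinapant. The tumor list as a whole summed to 775.3, 1761 and 2262 CPM in vehicle and 734.0 and 1018 after Xevinapant. The mitochondrial gene mt-Nd1 stood at 583.3, 1075 and 1152 CPM in vehicle and 347.2 and 495.7 after Xevinapant. The part of tumor RNA in these values was not tested.

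**Figure D5:**
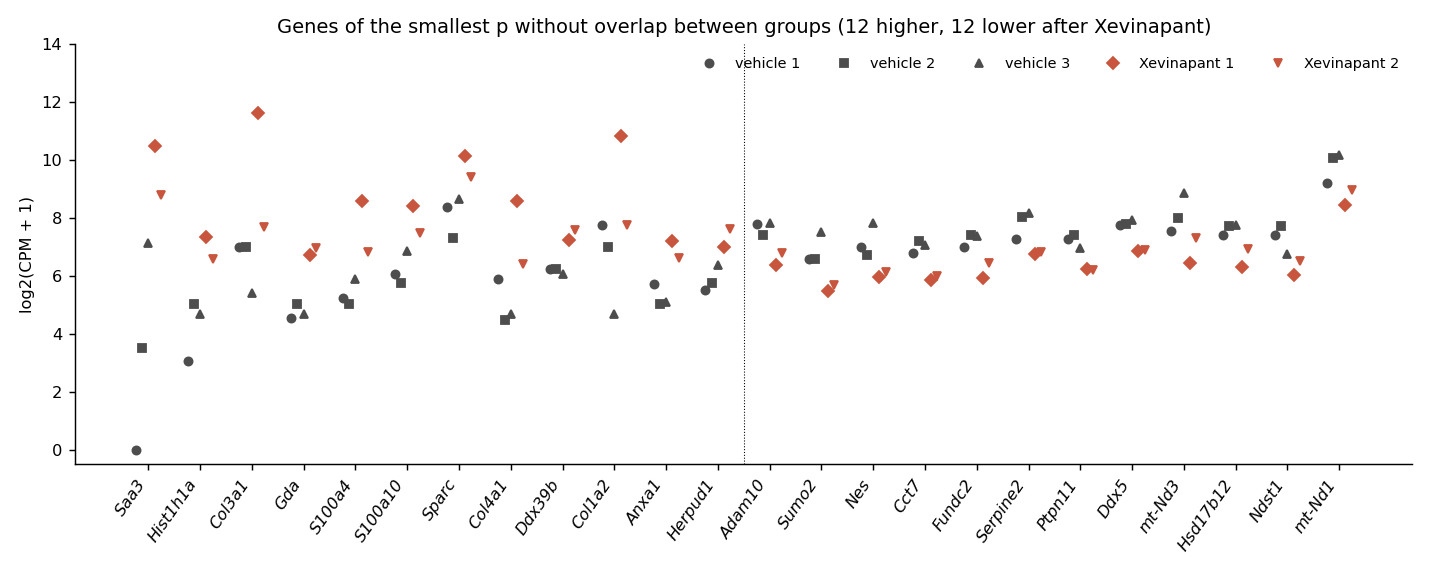
The vertical axis gives log2(CPM + 1) in gated macrophages of each joined sample (grey vehicle, red Xevinapant) for the 12 genes with the smallest p that were higher after Xevinapant and the 12 that were lower, chosen without overlap between groups. On this log2 axis Saa3 spans the widest range (0.0 to 1435 CPM), while Col3a1 spans more in CPM (41.4 to 3169), and no gene passed an adjusted p of 0.05.

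The targets of Xevinapant were sparse in these cells. Birc2 had 26 UMIs in 23 barcodes and Xiap 17 UMIs in 15 barcodes, both under the filter. Birc3 stood at 96.0, 0.0 and 107.7 CPM in vehicle and 57.1 and 84.6 after Xevinapant (log2 fold change -0.05 ± 0.59, edgeR adjusted p = 0.994), and its sign changed between alternatives. In the IAP and death receptor list 0 of 14 tested genes were called, with a median of -0.146. Border macrophage genes gave 0 called of 24, with a median of 0.312 against -0.00328 over all genes. At an unadjusted edgeR p under 0.05, 5 were higher and 0 lower, against 2.23% higher and 2.28% lower over all genes. Without overlap between the groups, 3 lay above and 1 below, against 9.55% and 8.7% over all genes. Cd163 (log2 fold change 0.99 ± 0.57) and Lyve1 (0.35 ± 0.71) had standard errors too wide to tell a rise from no change.

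Lists of the immune response showed no called gene either. The interferon list summed to 14133, 4871 and 10059 CPM in vehicle and 11449 and 9295 after Xevinapant, inside the vehicle range, with 0 of 40 genes called. The MHC class II list summed to 12398, 11839 and 16954 CPM in vehicle and 8790 and 13357 after Xevinapant, with 0 of 9 called and a median of -0.561. Chemokine genes gave 0 of 15 and inflammatory cytokine genes 0 of 15. The wound-type list gave 0 of 17, with sums of 7549 to 16769 CPM in vehicle and 12213 to 16722 after Xevinapant.

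Whether the effect of Xevinapant differed between gated macrophages and microglia was tested as an interaction. It passed for 1 of 7353 genes (0.0136%), and 311 genes (4.23%) had an unadjusted p under 0.05. The gene was Hist1h1a, which stood at 230.5, 253.9 and 315.0 CPM in microglia of vehicle and at 306.7 and 127.6 after Xevinapant, against the lower vehicle levels in gated macrophages given above. The difference of the effects was 2.99 ± 0.49 (SE) on the log2 scale, with an edgeR adjusted p of 0.0299. The call was lost with any 1 of the 5 joined samples left out, at edgeR adjusted p-values of 0.11 to 0.159. Hmox1 had a difference of 1.35 ± 0.26 with an edgeR adjusted p of 0.102. Within microglia, 4 of 8333 genes (0.048%) were called after Xevinapant.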

How the data were processed

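Single-cell libraries of mouse tumors, in 1 library pool per group and 8 matrices in all, were analysed from the deposited UMI counts per gene and barcode. Per the file headers, the authors made these counts with Cell Ranger 7.1.0, while the labels name version 3.0, the mm10 genome and Seurat 4.0. Each matrix held 19059 genes. The labels give total RNA for vehicle and polyA RNA for Xevinapant. All Xevinapant matrix file names carry the word vehicle, so groups were taken from the sample records. The members and the 29 gene lists were chosen with earlier results of these data known.

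The planned rule joined matrices whose tumor cells differed by under 1.5 times the sampling variance. It joined no pair (the nearest was at 1.505), and a limit of 5 at equal depth (5000 UMIs) was set after the data were seen. The p-values measure the spread between joined samples, which may be technical. Counts were summed per joined sample and population, with at least 10 barcodes each, and tested with edgeR 4.0.16 (quasi-likelihood, TMM, filterByExpr, Benjamini-Hochberg) in R 4.3.3. Genes of the gate were left out of the calls. Shares were compared by exact permutation tests. Genes were named as the 12 smallest p in each direction without overlap for treatment, none having passed, the 10 largest differences in each direction otherwise, and listed genes past the test. Genes used as illustrations beyond these were chosen after their values were seen. Total UMIs of gated macrophages were 94854 to 455042 per joined sample. Doublets were scored per matrix with scanpy 1.11.5 and kept. The edgeR fits were tested on simulated data. Alternatives were DESeq2 1.42.0, other scaling, no filter, each matrix alone, other gates and each sample left out. Values of some genes are not reported here.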

Additional observations from a re-analysis of the deposited data

Results flagged for a closer look

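Hist1h1a, a linker histone gene, was the single gene whose response to Xevinapant differed between gated macrophages and microglia by the interaction test. The difference of the log2 fold changes was 2.99 ± 0.49 (SE), with an edgeR adjusted p of 0.0299. Gated macrophages stood at 7.38, 31.6 and 24.9 CPM in vehicle and at 162.6 and 94.3 after Xevinapant, so both treated samples were higher. These values rested on 120 UMIs in 33 gated macrophages, with 14.2% of them in 1 barcode. Microglia stood at 230.5, 253.9 and 315.0 CPM in vehicle and at 306.7 and 127.6 after Xevinapant. The call was lost when any of the 5 joined samples was left out, with adjusted p-values of 0.11 to 0.159, and held with each matrix as a sample of its own (0.0315). The cause was not tested.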

How the results depend on the processing

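The higher share of gated macrophages among all barcodes kept its direction in every alternative run. It was 0.606 points with each matrix as 1 mouse, where the exact permutation p was 0.0286, the smallest possible. That setting counts the alike matrices as separate samples. The share among C1q barcodes had no stable sign. It ran from -0.877 to 1.59 points when 1 sample was left out (-0.442 without vehicle 1) and was -0.211 with the tumor limit at 0 UMIs. Calls after Xevinapant ran from 0 to 38 higher and 0 to 6 lower when 1 sample was left out, and the higher count was 1 without high doublet scores, 1 with the tumor limit at 0 UMIs and 2 with cells thinned to equal totals. Against Arg1 macrophages, leaving out 1 sample gave 28 to 171 higher and 40 to 166 lower. Library size without TMM gave 204 higher and 128 lower, with the median of all genes at 0.117. No filter gave 268 and 222, and DESeq2 gave 36 and 50. Against microglia, leaving out 1 sample gave 314 to 459 higher and 253 to 369 lower, DESeq2 gave 289 and 209, no block gave 342 higher, no filter gave 668 lower, and barcodes of at least 2000 UMIs gave 342 and 274. The interaction gave 0 to 1 gene higher and 0 to 1 lower. Birc3 ran from -0.54 to 0.32 on the log2 scale when 1 sample was left out (0.27, 0.32 and 0.21 where positive) and was 0.03 with no filter. The causes were not tested. Matrix numbers only name files and tie no animals together. With the replicate block over these numbers, 0 genes were called higher and 0 lower after Xevinapant, as without it. Few samples and shallow barcodes limit the precision of the treatment comparison.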
